A study of Mus musculus with 12 samples.

Results

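The expression of 6 genes of the prostaglandin pathway was examined in differentiating mouse keratinocyte cultures by RNA-Seq. They were chosen by gene name from a table of 21947 loci, and each of the 6 names was found as a locus of its own among these. *Ptgds* was selected on its measured values, because its counts were lower in siSbsn than in siControl cultures in both batches, and its values in that comparison are therefore given as a description without a test. The other 5 members, *Pla2g4a*, *Ptgs1*, *Ptgs2*, *Ptges* and *Hpgd*, stand beside it in the same pathway.

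Prostaglandins are short-lived lipid signals made from arachidonic acid. A phospholipase frees the fatty acid from membranes, the cyclooxygenases turn it into prostaglandin H2, and terminal synthases turn that intermediate into single prostaglandins, which are later inactivated by a dehydrogenase. In the epidermis, keratinocytes are a major source of prostaglandin E2, and the pathway is known for its part in inflammation, wound repair and proliferation.

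The cultures were primary keratinocytes of neonatal BALB/c mice, grown at 0.05 mM calcium and brought to 0.12 mM calcium to induce differentiation, a step that all groups shared. The siSbsn cultures had received 75 pmol of a pool of siRNAs against *Sbsn*, which encodes suprabasin, a protein secreted by differentiating epidermis. The siControl cultures had received the same amount of a non-targeting pool, and RNA of the transfected cultures was taken after 48 h. The study compared siSbsn with siControl to find genes that respond to the knockdown. Batch 1 held 2 libraries each of no siRNA, siControl and siSbsn, and batch 2 held 3 siControl libraries (numbered 1 to 3) and 3 siSbsn libraries (numbered 4 to 6). The labels call these sets batches and say no more of what set them apart. They do not say whether replicates were separate cultures or animals, so the p-values measure only the spread between these libraries. The cultures are transfected populations and not a line with a deleted gene.

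Total counts ranged from 27934836 to 49553923 per library. *Sbsn* itself stood at 332 to 459 normalized read counts (CPM, the reads of a locus scaled to a common library size) in siControl and at 121 to 125 CPM in siSbsn of batch 2. In batch 1, where siControl had 1189 and 1356 CPM, the library labelled siSbsn batch 1 replicate 1 held 1965 CPM and so went against its label, and replicate 2 held 696 CPM. The library siControl batch 1 replicate 1 stood apart from the others on the second principal component of all loci (57.3, against -28.0 to 22.1). The siSbsn values of *Ptgs2*, *Ptgds*, *Hpgd* and the wider pathway list are also given without these 2 libraries. All 7 keratinocyte markers were found, and their summed level was 16443 to 47200 CPM. The sum was mostly *Krt5* and *Krt14*. The differentiation markers among them were lower, with *Krt1* at 26.4 to 335 CPM, *Krt10* at 15.9 to 73.8 CPM and *Lor* at 4.34 to 29.8 CPM. *Krt1* was highest in the library labelled siSbsn batch 1 replicate 1.

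The bases before the starts of *Ptgds*, *Hpgd* and *Ptgs2* are shown because these are the members whose siSbsn values lay below siControl in at least 1 batch without overlap. The share of all loci with that pattern in at least 1 batch was not counted. The rule therefore serves only to choose the windows shown. Each run holds 250 bases 5′ to 3′ on the strand of its gene, ending at the base before the annotated start, from RefSeq sequence of GRCm38.p6, in which all 6 members had a matching entry. Capitals mark a match to 1 of the 4 motifs searched on both strands. The *Ptgds* window is chr2:25469750-25469999 on the minus strand, the *Hpgd* window is chr8:56294302-56294551 on the plus strand, and the *Ptgs2* window is chr1:150099781-150100030 on the plus strand.
Ptgds: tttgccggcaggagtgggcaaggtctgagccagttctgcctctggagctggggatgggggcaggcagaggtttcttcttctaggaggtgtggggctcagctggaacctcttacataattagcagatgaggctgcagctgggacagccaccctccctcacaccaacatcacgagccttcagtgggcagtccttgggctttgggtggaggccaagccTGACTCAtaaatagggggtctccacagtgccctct
Hpgd: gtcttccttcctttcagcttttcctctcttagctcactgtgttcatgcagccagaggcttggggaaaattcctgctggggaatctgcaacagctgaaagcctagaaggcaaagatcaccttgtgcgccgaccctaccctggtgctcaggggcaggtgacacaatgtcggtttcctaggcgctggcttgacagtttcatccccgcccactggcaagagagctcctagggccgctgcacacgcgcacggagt
Ptgs2: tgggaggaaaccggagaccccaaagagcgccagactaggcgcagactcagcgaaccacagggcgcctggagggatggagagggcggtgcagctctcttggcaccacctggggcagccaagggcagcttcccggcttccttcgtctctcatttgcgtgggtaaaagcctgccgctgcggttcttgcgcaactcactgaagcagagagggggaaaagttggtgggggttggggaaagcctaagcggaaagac

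The motifs were the AP-1 site TGANTCA, which 6.73% of 32536 such windows of the genome held, the cAMP response core CGTCA (17.9%), the E-box CACGTG (6.04%) and the TATA box TATAAA (12.3%). No motif holds the letters of another. Across the 6 members and 4 motifs there was 1 match, an AP-1 site in the *Ptgds* window that begins at position -35 relative to the annotated start. AP-1 is the dimer of Jun and Fos proteins. The windows of the other 5 members held none of these letters, which says nothing about binding of the factors. Bases outside the windows, including those past the annotated start, were not searched. A promoter that reaches beyond its window, or a gene with another start in use, could therefore hold these motifs. The GC content of the windows ranged from 43.2% for *Pla2g4a* to 61.6% for *Ptgs2*, with 58.4% for *Ptgds* and 56.8% for *Hpgd*.

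All 6 members passed the filter on low counts, with 78 to 29852 reads per library. Per kilobase of the longest coding transcript, the level of *Ptgs2* was the highest of the 6, with 53.3 to 192 CPM per kb and a median of 81.6 over the 12 libraries. *Ptges* came next at a median level of 22.1 CPM per kb (13.7 to 35.3), below every library of *Ptgs2*. *Ptgds* had a median level of 12.2 CPM per kb (5.91 to 19.7) and *Pla2g4a* one of 10.6 (7.71 to 17.5), so that neither could be told from the other, and *Ptgds* overlapped *Ptges* as well. The order below *Ptgs2* was not the same in each group. In siControl of batch 1 the mean levels of *Ptges*, *Ptgds* and *Pla2g4a* were 31.8, 15.0 and 14.9 CPM per kb. In siControl of batch 2 they were 14.9, 17.5 and 8.34 CPM per kb, with overlap between libraries of *Ptgds* and *Ptges*. In siSbsn of batch 2 *Ptges* (15.8 CPM per kb) was above *Ptgds* (11.8 CPM per kb). The siControl values of *Ptgds* helped to choose the gene, so its place in this order is a description. *Hpgd* (median 3.84, range 2.16 to 9.44 CPM per kb) and *Ptgs1* (median 2.31, range 0.940 to 4.26 CPM per kb) were the lowest and overlapped each other.

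**Figure D1:**
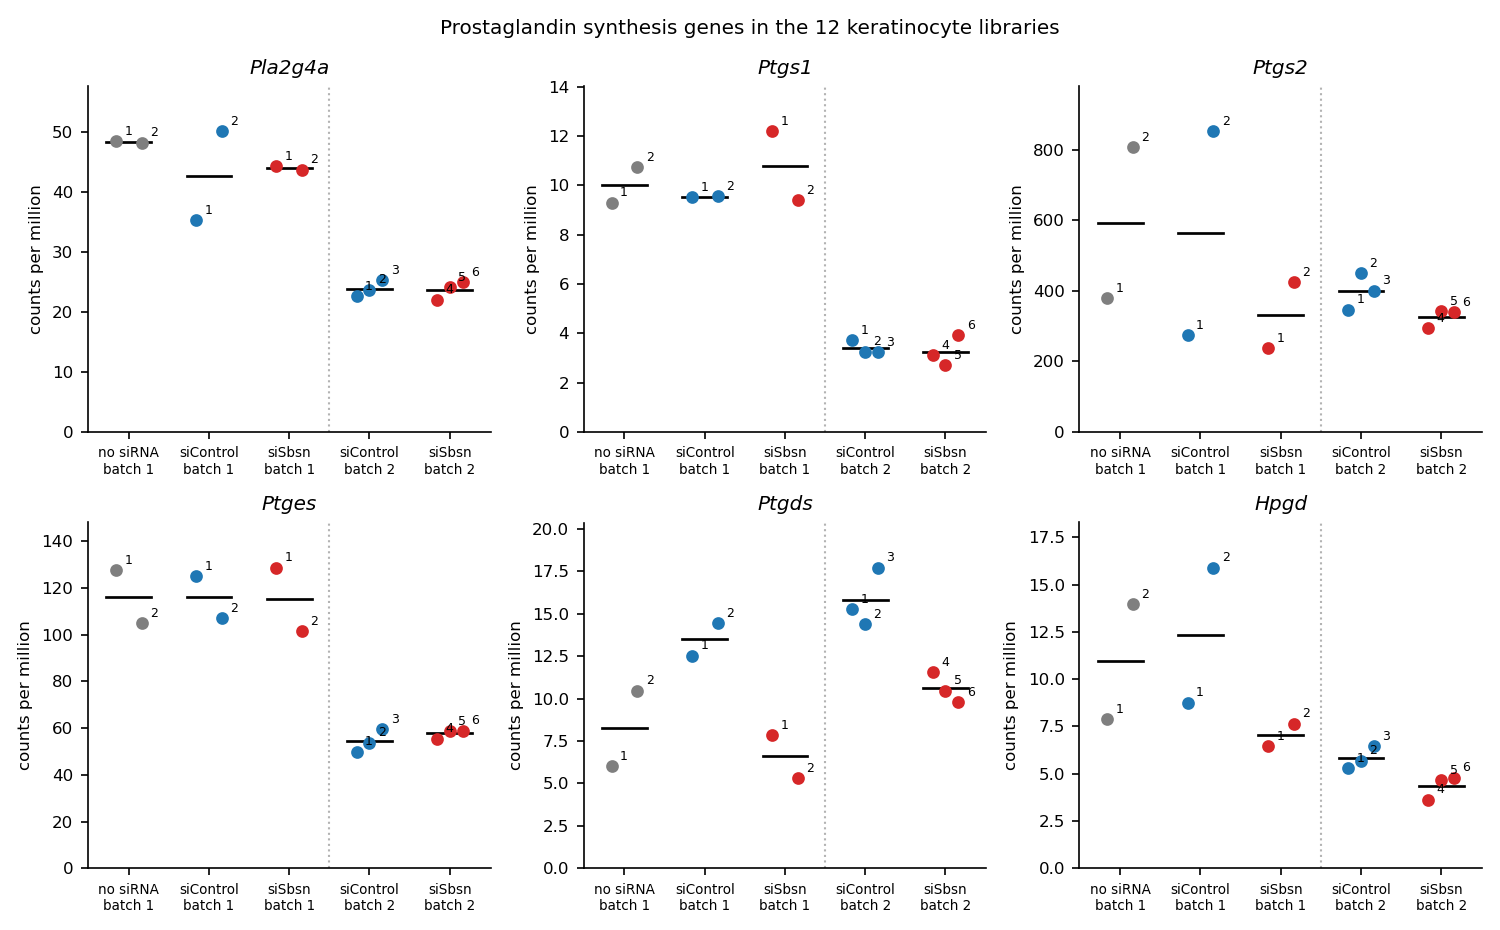
CPM of each member in every library (points, with the replicate number), by condition and batch, and the group mean (black line); every vertical axis starts at 0. In both batches the siSbsn points of *Ptgds* and *Hpgd* lie below the siControl points, while *Pla2g4a*, *Ptgs1* and *Ptges* differ mainly between the batches.

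Between siSbsn and siControl, *Ptgds* and *Hpgd* had lower values in siSbsn in every library of both batches, *Ptgs2* had lower means with overlap in batch 1, and *Pla2g4a*, *Ptgs1* and *Ptges* had nearly equal means. A locus was called when its log2 fold change exceeded 0.5 in size and its Benjamini-Hochberg q-value was under 0.05. Over both batches, with batch in the model, edgeR's quasi-likelihood test of 13211 loci called 0 of them (0%). DESeq2 called 92 of 12316 loci with a q-value (0.747%). Unadjusted p-values of edgeR were under 0.05 for 18.9% of loci. Of the 5 members tested, edgeR, DESeq2 and limma-voom called 0, and 1, *Hpgd*, was under an unadjusted p of 0.05 by each tool. Within each batch alone, edgeR called 0% of 12899 loci in batch 1 (11.7% at an unadjusted p under 0.05) and 0.00774% of 12924 loci in batch 2 (10.2%), where the 1 locus was *Sbsn*. With the replicate number of batch 1 as a block, edgeR called 1808 loci in batch 1. None of the 5 members tested was among them (q = 0.0566 for *Hpgd* and q = 0.0521 for *Ptgs2*). That count is given without its share of the loci tested, so no result about the members is drawn from it. Means were lower in siSbsn in both batches for 37.1% of all loci, and 4.12% of them were lower in every library of both batches without overlap. The members with that pattern were *Ptgds*, which it helped to choose, and *Hpgd*.

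The first step of the pathway is the release of arachidonic acid by cytosolic phospholipase A2, the product of *Pla2g4a* (chr1:149829619-149961290, minus strand, 18 exons in the longest coding transcript). Its level in batch 1 was 48.4 and 48.2 CPM with no siRNA, 35.3 and 50.1 CPM in siControl, and 44.3 and 43.7 CPM in siSbsn. In batch 2 it was 22.6, 23.7 and 25.2 CPM in siControl and 22.0, 24.1 and 24.9 CPM in siSbsn. The conditions overlapped in each batch, and every batch 2 library was below every batch 1 library. The log2 fold change of siSbsn over siControl was 0.018 (SE 0.097, edgeR q = 0.912).

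The cyclooxygenases carry out the committed step. *Ptgs1* (chr2:36230426-36252271, plus strand, 11 exons) encodes the constitutive enzyme COX-1, and its level in batch 1 was 9.30 and 10.7 CPM with no siRNA, 9.51 and 9.55 CPM in siControl, and 12.2 and 9.40 CPM in siSbsn. Batch 2 had 3.71, 3.25 and 3.22 CPM in siControl and 3.11, 2.69 and 3.93 CPM in siSbsn. As for *Pla2g4a*, the conditions overlapped and the batches did not. The log2 fold change of siSbsn over siControl was 0.047 (SE 0.13, edgeR q = 0.831).

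*Ptgs2* (chr1:150100031-150108234, plus strand, 10 exons) encodes the inducible enzyme COX-2. Its level in batch 1 was 380 and 807 CPM with no siRNA, 274 and 853 CPM in siControl, and 237 and 426 CPM in siSbsn. In batch 2 it was 347, 450 and 401 CPM in siControl and 294, 342 and 339 CPM in siSbsn. Within batch 1 the library numbered 2 was the higher of its pair in each of the 3 conditions, 2.12 times the other with no siRNA, 3.12 times in siControl and 1.80 times in siSbsn, so that replicates of 1 condition differed more than the condition means did. In batch 2 the siSbsn libraries were all below the siControl libraries. The mean in siSbsn was 58.8% of that in siControl in batch 1 and 81.4% in batch 2, and the log2 fold change over both batches was -0.48 (SE 0.27, edgeR q = 0.306). It was -0.77 (SE 0.51, q = 0.488) in batch 1 and -0.29 (SE 0.099, q = 0.458) in batch 2. Without siControl batch 1 replicate 2, the highest library, the fold change over both batches was -0.12, without siSbsn batch 1 replicate 1 it was -0.33, and without both libraries set apart above it was -0.47.

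The terminal synthases divide the product among single prostaglandins. *Ptges* (chr2:30889471-30903297, minus strand, 3 exons) encodes the microsomal synthase that makes prostaglandin E2 and is often coupled to COX-2. Its level in batch 1 was 128 and 105 CPM with no siRNA, 125 and 107 CPM in siControl, and 129 and 102 CPM in siSbsn. Batch 2 had 49.9, 53.8 and 59.6 CPM in siControl and 55.5, 58.9 and 59.0 CPM in siSbsn. The conditions overlapped in both batches, the mean in siSbsn was 99.3% of siControl in batch 1 and 106% in batch 2, and the log2 fold change was 0.054 (SE 0.091, edgeR q = 0.711). In batch 1 the library numbered 1 was the higher of each pair, the opposite of *Ptgs2*.

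*Ptgds* (chr2:25466712-25469749, minus strand, 7 exons) encodes lipocalin-type prostaglandin D synthase, a secreted protein that makes prostaglandin D2 and also carries small lipophilic molecules. Its level in batch 1 was 6.02 and 10.5 CPM with no siRNA, 12.5 and 14.4 CPM in siControl, and 7.86 and 5.33 CPM in siSbsn. The batch 2 values were 15.3, 14.4 and 17.7 CPM in siControl and 11.6, 10.5 and 9.77 CPM in siSbsn. These values, which chose the gene, lay below siControl in all 5 siSbsn libraries when each was set against its own batch. The mean in siSbsn was 48.9% of siControl in batch 1 and 67.2% in batch 2, and the log2 fold change was -0.75 (SE 0.14) over both batches, -1.06 (SE 0.32) in batch 1 and -0.56 (SE 0.098) in batch 2. The fold change over both batches was -0.78 without the library labelled siSbsn batch 1 replicate 1 and -0.76 without both libraries set apart above. Its longest coding transcript is 901 bases, the shortest of the 6 members, and with the trend of counts on gene length removed from each library the fold change was -0.49 over both batches, -0.58 in batch 1 and -0.43 in batch 2.

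The level of a gene in a culture reflects both its share of expressing cells and the RNA per cell, and in these bulk samples fewer cells of a type and less RNA per cell cannot be told apart. Since *Ptgds* is also expressed by melanocytes, their markers were read beside it. All 7 melanocyte markers were found, *Pmel* in a locus joined with *Dgka*, and none was at 0. Their summed level in batch 1 was 742 and 750 CPM in siControl and 930 and 755 CPM in siSbsn, and in batch 2 it was 1029 to 1091 CPM in siControl and 1055 to 1079 CPM in siSbsn. The sum was mostly *Tyrp1*, *Pmel* and *Dct*, and single markers did not move alike. *Mlana* was lower in siSbsn of batch 2 without overlap (16.8 to 18.1 against 19.4 to 22.3 CPM) and overlapped in batch 1 (12.8 and 18.7 against 18.3 and 27.6 CPM). *Mitf* was higher in siSbsn in both batches without overlap (58.4 to 62.3 against 46.7 to 55.0 CPM in batch 2). *Tyr* (13.9 to 16.2 against 9.29 to 13.2 CPM) and *Tyrp1* (231 to 276 against 149 to 219 CPM) were higher in siSbsn of batch 1 without overlap. Both overlapped in batch 2, and *Dct*, *Pmel* and *Sox10* overlapped in each batch. The summed level of 7 fibroblast markers, of which *Col1a1* was the most abundant, was 436 and 446 CPM in siControl and 517 to 1205 CPM in siSbsn of batch 1, and it overlapped in batch 2 (394 to 448 and 384 to 419 CPM). The part of these cells in the values of *Ptgds* was not tested.

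Inactivation begins with 15-hydroxyprostaglandin dehydrogenase, the product of *Hpgd* (chr8:56294552-56321046, plus strand, 7 exons). Its level in batch 1 was 7.89 and 14.0 CPM with no siRNA, 8.75 and 15.9 CPM in siControl, and 6.44 and 7.64 CPM in siSbsn. The batch 2 values were 5.28, 5.70 and 6.47 CPM in siControl and 3.63, 4.66 and 4.79 CPM in siSbsn. All 5 siSbsn libraries were below the siControl libraries of their batch, and the mean in siSbsn was 57.1% of siControl in batch 1 and 75.0% in batch 2. The log2 fold change was -0.57 (SE 0.17, q = 0.256 by edgeR and q = 0.0885 by DESeq2), so *Hpgd* did not pass the threshold. It was -0.82 (SE 0.36, q = 0.423) in batch 1 and -0.42 (SE 0.13, q = 0.444) in batch 2. Without siControl batch 1 replicate 2, its highest library, the fold change over both batches was -0.37, and without both libraries set apart above it was -0.61. With the gene length trend removed it was -0.41.

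**Figure D2:**
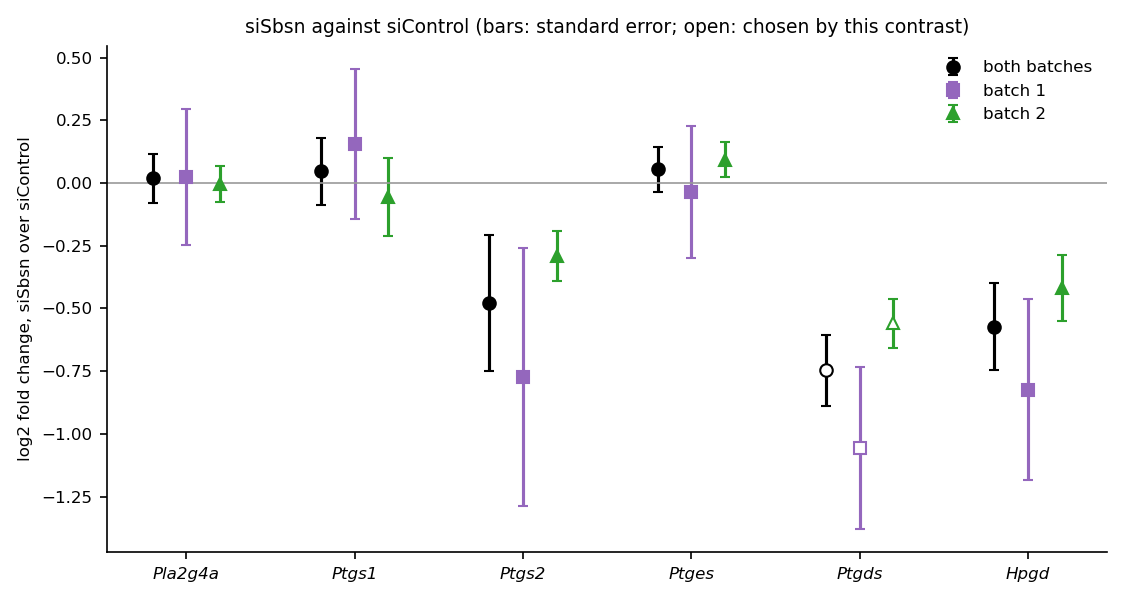
Log2 fold change of siSbsn over siControl for each member (vertical axis) over both batches, in batch 1 and in batch 2, with the standard error of edgeR's fit (bars); open symbols mark *Ptgds*, which was chosen by this contrast. *Ptgds*, *Hpgd* and *Ptgs2* lie below 0 in all 3 fits (for *Ptgs2* -0.48, -0.77 and -0.29), and the other 3 members lie within 0.16 of 0.

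The effect of siSbsn was not shown to differ between the batches for any member. In the interaction of batch and treatment, edgeR called 0% of 13419 loci, and 14.8% had an unadjusted p under 0.05. DESeq2 called 165 of 20053 loci with a p-value, with none of the 5 members tested among them. The log2 difference between the batches' effects was 0.49 (SE 0.56, q = 0.647) for *Ptgs2* and 0.41 (SE 0.34, q = 0.542) for *Hpgd*. For *Ptgds* it was 0.48 (SE 0.25), given without a test because the same libraries chose the gene.

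The no siRNA libraries of batch 1 gave another reference, which shares its libraries with the comparison above. For *Ptgds* the siControl libraries (12.5 and 14.4 CPM) were above both no siRNA libraries (6.02 and 10.5 CPM), and the siSbsn libraries (7.86 and 5.33 CPM) overlapped them. The log2 fold change of *Ptgds* was 0.74 (SE 0.34) for siControl over no siRNA and -0.33 (SE 0.34) for siSbsn over no siRNA. The siControl values of *Ptgds*, which helped to choose the gene, were thus above those of the other 4 libraries of batch 1. This split was not particular to *Ptgds*. On the second principal component of all loci the siControl libraries of batch 1 stood at 57.3 and 9.15, and the other 4 at -28.0 to -17.2. The siControl difference of *Ptgds* from no siRNA rested on few libraries. It was 0.39 without no siRNA replicate 1 and 1.20 without no siRNA replicate 2, and for siSbsn it was -0.67 and 0.13 without the same libraries. *Hpgd* differed in another way, with log2 fold changes of 0.20 (edgeR q = 0.762) for siControl over no siRNA and -0.63 (q = 1) for siSbsn over no siRNA. Its siControl libraries overlapped the no siRNA libraries, and both siSbsn libraries (6.44 and 7.64 CPM) were below them (7.89 and 14.0 CPM). For *Ptgs2* the same values were -0.053 (q = 0.963) and -0.84 (q = 1). In these comparisons edgeR called 0% of 13176 loci each, and 16.1% and 0.175% of loci had an unadjusted p under 0.05. By DESeq2 there were 25 called loci and 0, each of 18973 with a p-value, and neither tool called any of the 5 members tested.

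More loci differed between batches than between treatments. In siControl, edgeR called 16.1% of 13562 loci as higher and 19.7% as lower in batch 2, and 4 members were among the lower ones. *Ptgs1* fell by 1.49 on the log2 scale (SE 0.18, q = 0.000363), *Ptges* fell by 1.09 (SE 0.14, q = 0.000451), *Pla2g4a* fell by 0.84 (SE 0.14, q = 0.00195) and *Hpgd* fell by 1.09 (SE 0.28, q = 0.0142). *Ptgs2* had a log2 fold change of -0.50 (SE 0.43, q = 0.356). *Ptgds* had one of 0.22 (SE 0.23), given without a test because these libraries helped to choose the gene. The call of *Hpgd* was not kept without siControl batch 1 replicate 2 (-0.59, q = 0.101), without siControl batch 2 replicate 1 (q = 0.0506) or replicate 2 (q = 0.0504), or with the gene length trend removed (-0.78, q = 0.0872). With both libraries set apart above left out, siControl of batch 1 was a single library, the highest for *Ptgs2*, and the value of *Ptgs2* was -1.10. That library is then assumed to vary like the other groups, so no call is drawn from it.

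In siSbsn, 11% of loci were called higher and 18.1% lower in batch 2. *Ptgs1* fell by 1.73 (SE 0.18, q = 0.000111), *Ptges* fell by 0.99 (SE 0.14, q = 0.000553) and *Pla2g4a* fell by 0.89 (SE 0.14, q = 0.00101). *Hpgd* had a log2 fold change of -0.70 (SE 0.29, q = 0.0799) and *Ptgs2* one of -0.028 (SE 0.43, q = 0.966). *Ptgds* had a log2 fold change of 0.69 (SE 0.24), again without a test, with 9.77 to 11.6 CPM in batch 2 against 5.33 and 7.86 CPM in batch 1, which do not overlap. Leaving out 1 library at a time moved it between 0.43 and 0.99. The no siRNA libraries existed in batch 1 alone and gave no batch comparison.

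**Figure D3:**
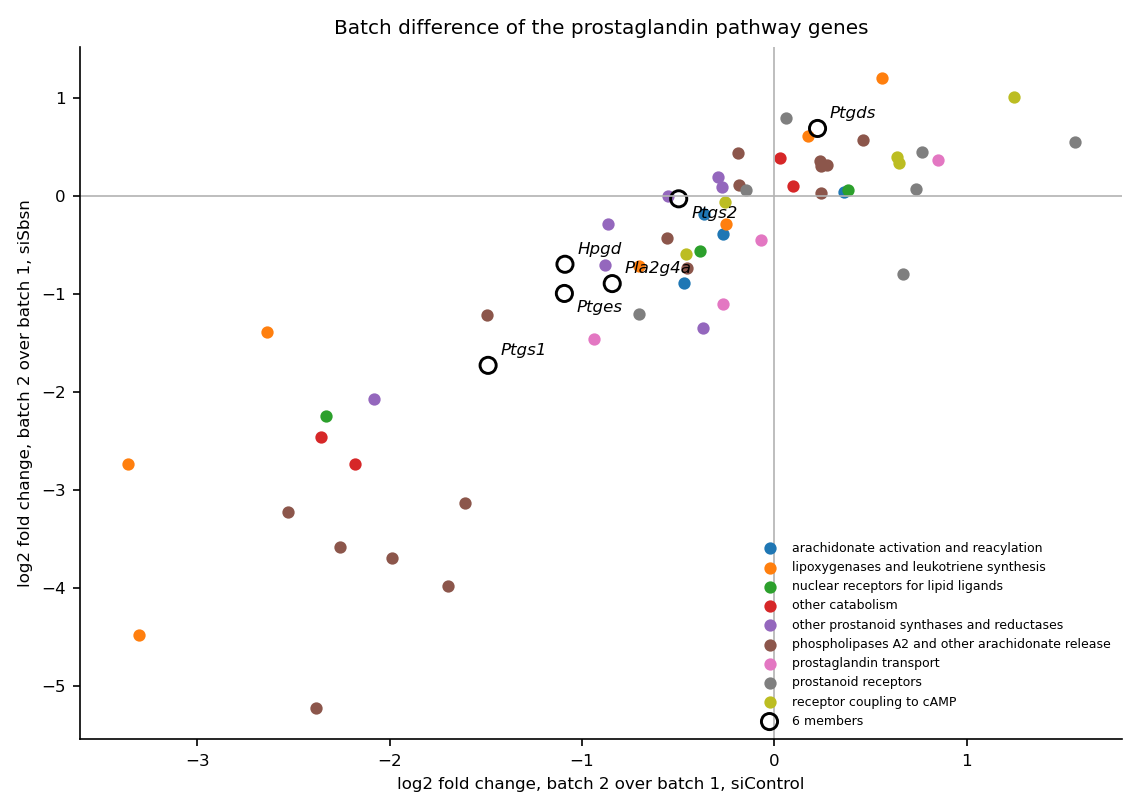
Log2 fold change of batch 2 over batch 1 in siControl (horizontal axis) and in siSbsn (vertical axis) for the 6 members (open circles) and the tested genes of the wider pathway (coloured by role). *Ptgs1*, *Ptges*, *Pla2g4a* and *Hpgd* lie in the lower left with several phospholipase genes, and *Ptgds* lies in the upper right.

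The members were read beside a wider list of 68 further genes of the pathway, of which 67 were found as loci and 13 share a locus with other names. In siSbsn against siControl over both batches, edgeR tested 56 of them and called 0, as did DESeq2 and limma-voom. By unadjusted p-values of edgeR under 0.05, 6 were higher and 7 lower, which is 23.2% of those tested beside 18.9% of all loci. Their median log2 fold change was 0.0061, against 0.0066 for all loci tested. Among the other prostanoid synthases and reductases, 6 of 7 had values below 0. They included *Akr1b3* at -0.53 (SE 0.16) and *Akr1b8* at -0.45 (SE 0.14), which encode aldo-keto reductases (edgeR q = 0.256 for both). The longest coding transcripts of these 2 are short, with 1387 and 1358 bases. No values with the gene length trend removed were taken for this group. The share of all loci below 0 was not counted, but their median was 0.0066. In batch 1, 6 of the 7 genes of this group were above 0 in siControl over no siRNA. In siSbsn over no siRNA 5 of the 7 were above 0. *Hpgds*, the haematopoietic synthase that also makes prostaglandin D2, had a log2 fold change of siSbsn over siControl of 0.47 (SE 0.21, q = 0.26). It was 1.02 (SE 0.35) in batch 1, 0.083 (SE 0.078) in batch 2 and 0.27 (SE 0.12) without both libraries set apart above. Its level was 12.8 to 45.7 CPM over the 12 libraries, highest in the library labelled siSbsn batch 1 replicate 1. The mast cell markers *Mcpt4* and *Cma1* were at or near 0, but the markers *Cpa3* and *Tpsb2* had no locus among those counted. The cell source of *Hpgds* was not tested.

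Among the remaining roles, the phospholipase genes *Pla2g3* (log2 fold change 1.60, SE 0.52) and *Pla2g12a* (-0.36, SE 0.15) and the transporters *Slco3a1* (0.60, SE 0.18) and *Abcc4* (0.32, SE 0.15) had the smallest p-values of their groups. Of the receptors these were *Ptger3* (0.76, SE 0.31), an EP receptor for prostaglandin E2, and the locus of *Ptgdr2* and *Ccdc86* (-0.35, SE 0.16). *Ptgdr2* encodes a receptor for prostaglandin D2, but the counts of this locus cannot be assigned to either gene. The lipoxygenase branch also starts from arachidonic acid, and its leading genes were *Alox12b* (-0.62, SE 0.19) and the locus of *Ltc4s* (-0.62, SE 0.27). Of receptor coupling to cAMP they were *Pde4d* (0.34, SE 0.095) and *Creb1* (0.28, SE 0.12). None of these passed the threshold (edgeR q from 0.256 to 0.265). Levels were low over the 12 libraries for *Pla2g3* (0.13 to 3.82 CPM), *Ptger3* (0.26 to 1.69 CPM) and the locus of *Ltc4s* (0.092 to 0.68 CPM). *Pla2g3* was highest in the library labelled siSbsn batch 1 replicate 1 and did not pass the filter in batch 2 alone. In the groups of reacylation (*Lpcat3* -0.11 and *Lpcat2* 0.085), other catabolism (*Cyp4f13* -0.23 and *Cyp4f39* 0.35) and nuclear receptors (*Ppara* 0.32 and *Ppard* 0.077) the leading genes had edgeR q-values from 0.268 to 0.567. Without both libraries set apart above, none of the 54 wider genes then tested was called. The fold changes of *Slco3a1* (0.42), *Abcc4* (0.19), *Pla2g12a* (-0.19), *Akr1b3* (-0.41) and *Akr1b8* (-0.34) were then smaller in size. So was that of the locus of *Ptgdr2* and *Ccdc86* (-0.14). In batch 2 alone *Slco3a1* was 0.27, the locus of *Ptgdr2* and *Ccdc86* was -0.054, *Akr1b3* was -0.31 and *Akr1b8* was -0.22. In batch 1 the same values, in that order, were 1.07, -0.83, -0.89 and -0.83.

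Between the batches, 24 of 57 genes of the wider list were called in siControl (6 higher, 18 lower) and 25 of 57 in siSbsn (3 higher, 22 lower). The lower ones were 31.6% and 38.6% of those tested, beside 19.7% and 18.1% of all loci, and the higher ones were 10.5% and 5.26%, beside 16.1% and 11%. Their median log2 fold change was -0.27 and -0.29, against -0.017 and -0.019 for all loci. The lower ones included the secreted phospholipase gene *Pla2g2f* (-2.53 in siControl and -3.23 in siSbsn), the prostaglandin reductase gene *Ptgr1* (-2.35 and -2.46), the lipoxygenase gene *Alox12b* (-3.36 and -2.74), the transporter gene *Slco2a1* (-0.94 and -1.46) and *Ptger4*, another EP receptor (-0.70 and -1.20). The phosphodiesterase gene *Pde4b* was higher in both (1.25 and 1.01). The siControl count was 14 without siControl batch 1 replicate 1. The siSbsn count was 12 when the library labelled siSbsn batch 1 replicate 1 was left out. The number of all loci called also moved under some settings. These counts are given without the share of all loci and without the direction. They therefore do not show whether the larger share of lower genes was kept.

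The single-name loci with the profile nearest to *Ptgds* were sought over the 12 libraries, by the root mean square difference in log2(CPM + 0.5) after each gene was centred on its mean in each batch. Over 10941 loci the median distance was 0.45, and the distance of *Ptgds* from a flat profile was 0.41. The nearest were *Csf3* (0.15), which encodes a granulocyte growth factor, *Dmrta2* (0.16), *Phlda1* (0.18), *Hmga1* (0.19), an architectural chromatin protein, and *Map1s* (0.20). *Phlda1* had 329 and 360 CPM in siControl of batch 1 against 152 and 172 CPM in siSbsn and 179 and 259 CPM with no siRNA, and in batch 2 it had 160 to 208 CPM in siControl against 128 to 143 CPM in siSbsn. *Csf3* was low, between 1.83 and 4.51 CPM. All 5 had both siControl libraries of batch 1 above the 4 other libraries of that batch, as *Ptgds* did. They were picked for likeness over the same libraries, which share their depth and batch, so the pattern is a description.

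For *Ptges*, whose distance from a flat profile was 0.12 against a median distance of 0.24, the nearest were *Mitd1* (0.039), *Endou* (0.046), *Abhd6* (0.050), *Adi1* (0.055) and *Sap18* (0.062). Like *Ptges*, *Endou* was higher in library 1 than in library 2 of each batch 1 pair, with 497 and 402 CPM with no siRNA, 505 and 424 CPM in siControl and 489 and 398 CPM in siSbsn. In batch 2 it was lower, at 156 to 178 CPM.

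**Figure D4:**
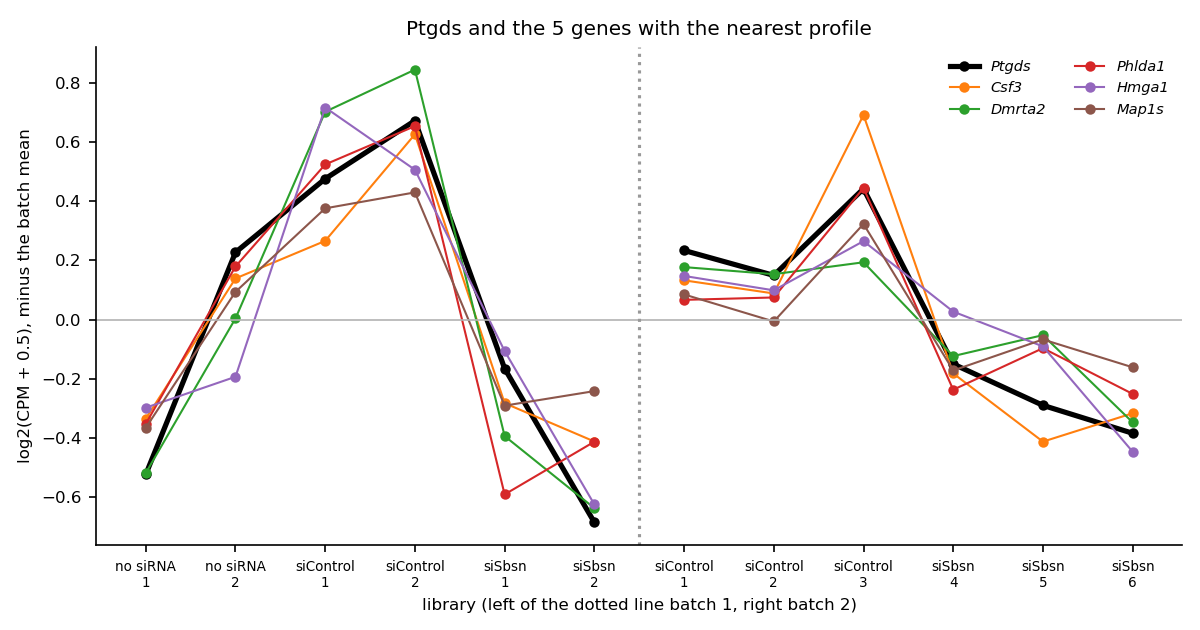
Log2(CPM + 0.5) minus the batch mean (vertical axis) in each library (horizontal axis) for *Ptgds* (thick black) and the 5 genes nearest to it. Within each batch every line is highest in the siControl libraries. In batch 1 the lines are lowest in siSbsn and in no siRNA replicate 1, except for *Hmga1*. Its no siRNA replicate 2 (-0.19) lies below its siSbsn batch 1 replicate 1 (-0.11).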

How the data were processed

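RNA-Seq libraries of mouse keratinocyte cultures were grouped by treatment and batch from the labels. The authors aligned the reads to mm10 with STAR, kept uniquely aligned reads and deposited raw whole-number counts per locus of the UCSC KnownGene annotation. They joined the names of overlapping genes, and their strand setting is not stated in the labels or the study's methods. The 1828 loci with comma-joined names were left out of gene lists. Locus starts are printed after adding 1. Lengths, strands and exons are from GENCODE.

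Low counts were filtered with filterByExpr, libraries were scaled by TMM, and the quasi-likelihood test of edgeR 4.0.16 in R 4.3.3 was run, with q-values adjusted over all loci tested. CPM was taken over the filtered, TMM-scaled library, and profiles used log2(CPM + 0.5). Standard errors are the size of the log2 fold change over the root of the F statistic. DESeq2 1.42.0 and limma-voom 3.58.1 were alternatives. The tests were tested on simulated data. Named genes were the members, the genes of smallest p in each role of the wider list, called genes of the batch comparison, and the 5 nearest profiles. *Hpgds*, *Endou* and the single melanocyte markers were singled out after their values were seen. The members and lists were chosen with earlier results of these data known.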

Additional observations from a re-analysis of the deposited data

How the results depend on the processing

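The number of members called stayed within 1.5 times in each comparison under every alternative run, and no alternative called any of the 5 members tested in siSbsn against siControl. Values near 0 changed sign over both batches. *Pla2g4a* was -0.020 with upper quartile normalization, -0.057 without both siControl batch 1 replicate 1 and siSbsn batch 1 replicate 1, and -0.0041 in batch 2 alone. *Ptgs1* was -0.048 and -0.055 in the last 2 of these, and *Ptges* was -0.037 in batch 1 alone. In batch 2 with the gene length trend removed, chosen after seeing the data, *Pla2g4a* was 0.021. Leaving out 1 library at a time over both batches gave -0.065 to 0.10 for *Pla2g4a* and -0.044 to 0.12 for *Ptgs1*. It gave -0.81 to -0.62 for *Ptgds* and -0.68 to -0.37 for *Hpgd*. Neither of these signs could change, since every siSbsn library lay below the siControl libraries of its batch. In batch 1, leaving out 1 library gave -0.20 to 0.26 for *Pla2g4a*, -0.19 to 0.12 for *Ptges*, -0.018 to 0.32 for *Ptgs1* and -1.37 to 0.22 for *Ptgs2*. In batch 2 it gave -0.20 to 0.043 for *Ptgs1* and -0.035 to 0.047 for *Pla2g4a*. For the interaction it gave -0.57 to 1.08 for *Ptgs2* and -0.099 to 0.76 for *Hpgd*. For siControl over no siRNA it gave -0.26 to 0.67 for *Hpgd* and -1.06 to 0.59 for *Ptgs2*. For batch 2 over batch 1, *Ptgs2* ranged from -1.10 to 0.55 in siControl and from -0.39 to 0.46 in siSbsn. The cause of these changes was not tested.

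The labels do not say whether same-numbered libraries of batch 1 belong together. Their deviations from the group means correlated at 0.383, 0.813 and 0.462 over 13176 loci. With a replicate block the loci called in batch 1 rose from 0 to 1808, a count given without its share of the loci tested. None of the 5 members tested was among them. With the block over both batches *Ptgds* was -0.75, *Hpgd* -0.55 (edgeR q = 0.115) and *Ptgs2* -0.41 (edgeR q = 0.115). Without a block, DESeq2 called 151 of 18219 loci with a p-value in batch 1 and 7 of 19148 in batch 2. With 78 to 397 reads for *Ptgs1*, 221 to 596 for *Ptgds* and 135 to 556 for *Hpgd* per library, counting error is larger for these members than for *Ptgs2*.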
